A study of Mus musculus with 81 samples.

Results

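The TCRBV12 family, whose products are the mouse Vβ5 chains, was followed here in every T cell other than the transferred OT-1 clone. OT-1 is a transgenic CD8+ T-cell line that recognizes the ovalbumin peptide SIINFEKL on H-2Kb, and its own β chain is built from TCRBV12-01 joined to TCRBJ02-07 with the CDR3 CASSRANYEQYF. Members were therefore all productive rearrangements (status In, an open reading frame) assigned to a TCRBV12 segment whose CDR3 was not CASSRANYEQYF. Summed over 81 libraries of 27 mice, 29945 of 378297 non-OT-1 productive rearrangements met this rule, which was 7.92%, and they held 53081 of 861463 templates, or 6.16%. A rearrangement is 1 distinct nucleotide sequence in 1 library, and its template count estimates the genomes that carried it, so the rearrangement share follows how many different clones used a segment and the template share follows how many cells did.

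Female CD45.1 Pep Boy mice (B6.SJL-Ptprca Pepcb/BoyJ) bearing EG7.OVA tumors, an ovalbumin-expressing derivative of the EL4 T lymphoma, received 1e6 naive OT-1 cells and then mouse red blood cells: 1e9 control cells (mRBC-CTRL), or 2.5e8 (2.5E8) or 1e9 (1E9) cells carrying OVA, 4-1BBL and IL-12. Blood was taken on days 0 and 7 and tumors on day 7, with 5 mice per arm, less 1 mRBC-CTRL library of day 7 blood and 1 1E9 library of day 0 blood that were not among the 81 libraries. In the rechallenge experiment, 7 mice cured by the 2.5e8 dose (Cured) gave blood before (day 65) and after (day 73) an EG7.OVA rechallenge and again before and after a later EL4 challenge, and 5 age-matched naive mice (Naive) given 5e5 OT-1 cells and no red cells gave blood on days 65 and 73. Genomic DNA of all cells in a sample was read by the immunoSEQ assay, so a recovered sequence carried no mark of cell type or CD45 allele, and OT-1 cells were separated from all others by their CDR3 alone. Because shares were read from bulk DNA, more cells using the family and fewer cells using the other segments cannot be told apart. The paper states that blood before treatment or rechallenge was drawn minutes after the T-cell transfer. OT-1 shares in day 0 blood, and in day 65 blood of Naive mice, were therefore those of cells just injected.

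Each T cell makes its β chain by joining 1 V, 1 D and 1 J segment, and the junction forms CDR3, the loop that meets peptide; the V segment itself encodes the loops that mainly meet the MHC molecule. Vβ5 chains are bound by retroviral superantigens presented on I-E, which strains of the B6 background lack, so their T cells are retained there, and in B6 mice Vβ5 is used more by CD8+ than by CD4+ T cells. Rearrangements that fall out of frame are carried silently by cells whose other allele worked, and so show how often a segment recombines before any selection on its protein. In the RefSeq annotation of GRCm38.p6, Trbv12-1 (Tcrb-V5.2) and Trbv12-2 (Tcrb-V5.1) are functional V segments interleaved with Trbv13 segments, and Trbv12-3 (Tcrb-V5.3) is a pseudogene.

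TCRBV12-01 contributed 17827 member rearrangements (59.5%) and TCRBV12-02 contributed 12099 (40.4%), while TCRBV12-03 was assigned to 9 and 10 were resolved to the family only, and these 4 groups account for every member. The end of the V segment that the assay reads before CDR3 is shown for both members because it is what tells them apart; capitals mark the 4 bases of 39 at which they differ, and the OT-1 sequence had 0 mismatches to TCRBV12-01 there.
TCRBV12-01: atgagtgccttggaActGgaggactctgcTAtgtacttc
TCRBV12-02: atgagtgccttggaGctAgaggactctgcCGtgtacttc
OT-1: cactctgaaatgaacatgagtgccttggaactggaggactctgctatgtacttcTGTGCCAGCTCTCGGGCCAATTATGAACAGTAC
In the 87-base OT-1 window, which 78 libraries held, and in the windows below, capitals mark CDR3 as far as the read extends. These flanks were carried by 97.7% of TCRBV12-01 and 98.3% of TCRBV12-02 rearrangements. Misread copies of OT-1 could fall to TCRBV12-01, so rearrangements resembling OT-1 were counted. Rearrangements with the OT-1 CDR3 itself, all left out here, were assigned to TCRBV12 in 597 cases and to another V segment in 400. Those 400 held 0.230% of the templates with that CDR3. Only 12 member rearrangements, each with 1 template, lay within 2 mismatches of OT-1, and 155 of the 17827 TCRBV12-01 rearrangements lay within 4 edits of it, whereas among out-of-frame TCRBV12-01 rearrangements 704 of 12163 did (5.79%), reaching 46.1% in 1E9 tumors. The productive against out-of-frame shares, the J segments, the V segment fits on rearrangements, the tumor gain and the relations with OT-1 are also given below without rearrangements within 4 edits of OT-1.

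Depth differed widely among libraries. Non-OT-1 productive templates ranged from 482 to 22115 in 66 blood libraries and from 927 to 72971 in 15 tumors, and member templates from 40 to 1577 and from 73 to 6587, respectively. In tumors, the TCRBV15 clone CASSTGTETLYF, the β chain of the lymphoma itself, took 3.37 to 83.8% of non-OT-1 templates, which lowers the template share of every other segment there but counts as few rearrangements. The lowest family template share, 1.15% in a tumor, had a 95% Wilson interval of 1.05 to 1.25% and the highest, 16.2% in another tumor, one of 15.8 to 16.5%; the intervals cover counting error only.

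In the first blood library of each of 26 mice (14 of the treatment and 12 of the rechallenge experiment), TCRBV12-01 made up 4.31% ± 0.683 (SD, n = 26) of rearrangements and TCRBV12-02 made up 3.17% ± 0.372 (SD, n = 26). These levels placed them at ranks 12 and 16 among the V segments, of which TCRBV13-02, a Vβ8 segment, was first at 10.6%. TCRBV12-01 exceeded TCRBV12-02 in 25 of 26 mice and equalled it in the other, by 1.14 percentage points ± 0.551 (SD), with a 2-sided sign-flip permutation p of 1e-05, the smallest that 100000 resamples can give.

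Among productive rearrangements TCRBV12-01 was less frequent than among out-of-frame ones, and TCRBV12-02 showed no such difference beyond its spread. The TCRBV12-01 share was 4.31% In and 5.87% out of frame, lower In in every one of the 26 mice, whereas TCRBV12-02 stood at 3.17% and 3.07%, higher In in 15 of 26 mice (difference 0.0955 points, permutation p = 0.369). For the family together the shares were 7.48% ± 0.952 and 8.95% ± 0.750 (SD, n = 26), a difference of -1.47 points ± 1.04 (SD) with a permutation p of 1e-05. Removing rearrangements within 4 edits of OT-1 left a difference of -1.23 points for the family, -1.31 for TCRBV12-01 and 0.0867 for TCRBV12-02. The lower productive share of the family therefore lay in TCRBV12-01, with or without the rearrangements that resembled OT-1.

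The family joined a different set of J segments from the other V segments. Of 12 J segments tested, 8 (66.7%) differed with a Benjamini-Hochberg adjusted permutation p below 0.05 over the 12. TCRBJ01-02 was joined by 9.32% ± 1.33 of TCRBV12 and 6.07% ± 0.402 of other rearrangements (SD, n = 26), higher in 26 of 26 mice (adjusted permutation p = 3.0e-05). TCRBJ01-01 showed the opposite, at 7.49% ± 1.71 against 11.4% ± 0.662, higher in 1 of 26 mice (adjusted permutation p = 3.0e-05). All other J1 segments tested were also used less, with TCRBJ01-03 at 4.76% against 5.53%, TCRBJ01-04 at 6.27% against 7.30%, TCRBJ01-05 at 2.52% against 3.37% and TCRBJ01-06 at 2.20% against 3.26%. In the treatment experiment alone, TCRBJ01-03, TCRBJ01-04 and TCRBJ01-05 did not pass (adjusted permutation p = 0.562, 0.0884 and 0.113). TCRBJ01-04 did not pass in the rechallenge experiment alone either (adjusted permutation p = 0.0695). In the J2 cluster, TCRBJ02-05 was at 14.02% against 11.9% (adjusted permutation p = 3.0e-05) and TCRBJ02-07, the J segment of OT-1, at 20.2% against 18.7% (higher in 17 of 26 mice, adjusted permutation p = 0.0384). TCRBJ02-01, TCRBJ02-02, TCRBJ02-03 and TCRBJ02-04 did not pass. The TCRBJ02-07 difference of 1.49 points was 1.17 without rearrangements within 4 edits of OT-1 and then did not pass (adjusted permutation p = 0.100). It also did not pass on templates (0.909 points, adjusted permutation p = 0.355), in the treatment or the rechallenge experiment alone (adjusted permutation p = 0.0703 and 0.403) or for TCRBV12-02 alone (0.286). The other 7 J segments kept their calls without rearrangements within 4 edits of OT-1.

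The J preferences were not all shared by both members. The excess of TCRBJ02-05 lay in TCRBV12-02, at 16.8% against 11.9% of other V segments and higher in 25 of 26 mice, while TCRBV12-01 joined it at 11.9%, a difference of -0.0529 points (permutation p = 0.909). TCRBJ02-01 went the other way, at 11.9% of TCRBV12-01 against 9.71% of other V segments (adjusted permutation p = 0.00127) and 9.19% of TCRBV12-02 (adjusted permutation p = 0.405). The TCRBJ01-02 excess was present in both, at 10.1% of TCRBV12-01 and 8.28% of TCRBV12-02. The lower use of TCRBJ01-03 and TCRBJ01-05 passed for TCRBV12-01 (adjusted permutation p = 0.00388 and 4.0e-05). For TCRBV12-02 it did not (adjusted permutation p = 0.286 and 0.799). That of TCRBJ01-04 passed for TCRBV12-02 (adjusted permutation p = 0.00108) and not for TCRBV12-01 (0.334). Differences between the members themselves were not tested.

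**Figure D1:**
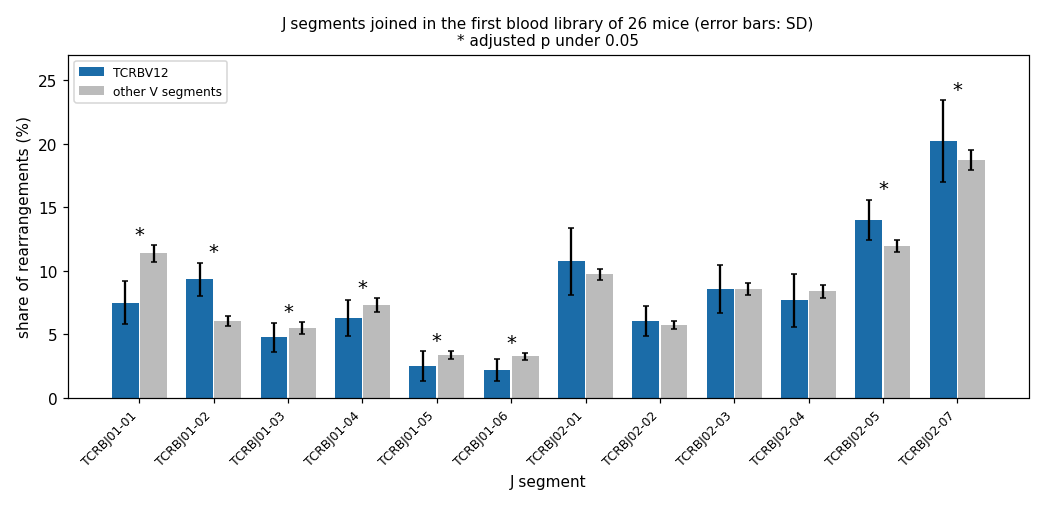
Share of rearrangements (%) joined to each of the 12 J segments in the first blood library of 26 mice, for TCRBV12 (blue) and for all other V segments (grey), with SD over mice as error bars and stars where the adjusted p was below 0.05. TCRBJ01-02 stands above the other V segments (9.32% against 6.07%) and TCRBJ01-01 below them (7.49% against 11.4%).

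CDR3 loops of the family were close in length to those of other V segments. Their mean length was 13.9 amino acids in both, with a difference of 0.0388 ± 0.0830 (SD, n = 26), higher in 19 of 26 mice (permutation p = 0.0247); in the treatment experiment alone the difference was -0.00014 (permutation p = 0.995), so it rested on the rechallenge experiment, where it was 0.0841 and present in 12 of 12 mice (permutation p = 0.000488). Loops of 14 amino acids made up 33.5% of the family and 30.7% of the rest. Inserted bases at the junctions, which the polymerase TdT adds without a template, numbered 3.53 per rearrangement in TCRBV12 and 3.39 in other segments, a difference of 0.139 ± 0.206 (SD), higher in 21 of 26 mice (permutation p = 0.00171).

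Most member CDR3s were private to a mouse. Of 13491 CDR3s on TCRBV12-01, 85.8% were found in 1 mouse, as were 87.6% of 9527 on TCRBV12-02. The same share was not computed for the other V segments, so these values do not set the family apart. At the other end, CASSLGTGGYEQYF was found in 14 of 27 mice on each member, and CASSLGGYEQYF in 14 mice and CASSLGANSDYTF in 13 on TCRBV12-01. Their leading sequences on TCRBV12-01 and TCRBV12-02 show how 1 loop was made on both members, with 0 inserted bases and differences outside CDR3 only.
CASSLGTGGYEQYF on TCRBV12-01: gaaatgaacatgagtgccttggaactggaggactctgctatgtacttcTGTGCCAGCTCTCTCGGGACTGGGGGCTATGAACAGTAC
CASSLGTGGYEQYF on TCRBV12-02: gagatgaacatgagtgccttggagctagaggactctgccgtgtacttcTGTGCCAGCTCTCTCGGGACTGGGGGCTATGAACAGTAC
On TCRBV12-01 these shared loops were rare in every library, at no more than 0.188% of templates for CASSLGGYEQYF and 0.0805% for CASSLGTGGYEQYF.

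In none of the 19 comparisons between arms, days or tissues did the template share of the family pass an adjusted p of 0.05. Group means in blood lay between 6.96% ± 0.853 (SD, n = 5; mRBC-CTRL, day 0) and 9.18% ± 1.43 (SD, n = 5; 1E9, day 7), and the lowest adjusted p of the exact permutation tests was 0.264. With 4 or 5 mice in an arm these tests have few arrangements. The within-mouse tests of 4 or 5 mice could not give a p below 0.05 whatever the values, so they cannot show an absence of change. The counts of all V segments were therefore also fitted together. In edgeR's quasi-likelihood test on templates, neither member passed an adjusted p of 0.05 between arms in day 7 blood (0 of 22 V segments called, 0%; 2 had an unadjusted p below 0.05), in day 65 blood of Cured and Naive mice (0 of 23, 0%; 4 unadjusted), between days 0 and 7 of the 1E9 arm (0 of 22, 0%; 8 unadjusted) or between days 65 and 73 of Cured mice (1 of 23, 4.35%).

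The TCRBV12-01 share of rearrangements in day 7 blood was higher with the 1e9 dose, although its rearrangements numbered 140 on average in 1E9 and 229 in mRBC-CTRL libraries. TCRBV12-01 made up 5.47, 6.69, 7.42, 6.60 and 6.67% of non-OT-1 rearrangements in 1E9 mice 1 to 5, 4.50, 4.51, 5.11, 4.78 and 4.65% in 2.5E8 mice 1 to 5, and 5.12, 4.80, 4.45 and 4.32% in mRBC-CTRL mice 2 to 5. All 1E9 mice stood above all other mice. The group means were 6.57% and 4.67% in the 1E9 and mRBC-CTRL arms, and the exact permutation p was 0.0159 (0.238 when adjusted over the 19 comparisons). TCRBV12-02 had 3.43, 4.18, 3.58, 3.62 and 2.46% in the 1E9 arm and 3.49, 3.34, 3.21 and 3.48% in the mRBC-CTRL arm, which overlapped. The excess of TCRBV12-01 over TCRBV12-02 itself was 3.12 points in 1E9 and 1.29 points in mRBC-CTRL mice, without overlap (exact permutation p = 0.0159).

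In edgeR's fit of rearrangement counts, TCRBV12-01 was the single V segment called of 22 (4.55%) between 1E9 and mRBC-CTRL day 7 blood, with a log2 fold change of 0.49 (1.40-fold; adjusted p = 1.8e-07), and TCRBV12-02 had a log2 fold change of 0.09 (adjusted p = 0.564). Leaving out rearrangements within 4 edits of OT-1 gave 0.47 for TCRBV12-01 (adjusted p = 6.7e-07), and leaving out each mouse in turn gave 0.41 to 0.57. Within the 1E9 arm, 2 of 21 V segments (9.52%) were called from day 0 to day 7, TCRBV12-01 among them with a log2 fold change of 0.59 (1.51-fold; adjusted p = 0.000449; 0.58 without rearrangements within 4 edits of OT-1), and TCRBV12-02 had 0.16 (adjusted p = 0.589). On templates the corresponding values of TCRBV12-01 were 0.21 between arms (adjusted p = 0.384) and 0.51 over time (adjusted p = 0.0998). From day 0 to day 7 the TCRBV12-01 share of rearrangements also rose in the other arms. The mean rise was 0.647 points in mRBC-CTRL (all 4 paired mice), 0.541 in 2.5E8 (all 5) and 2.37 in 1E9 (all 4 paired mice). On templates the mean rises were 1.22, 0.363 and 1.99 points, respectively. OT-1 itself held 63.6% ± 11.6 (SD, n = 5) of productive templates in 1E9 day 7 blood against 3.62% ± 2.64 (SD, n = 4) in mRBC-CTRL. After all libraries were drawn down to 482 templates, the family's rearrangement share was 10.1% in 1E9 and 9.21% in mRBC-CTRL day 7 blood (exact permutation p = 0.341). The part of depth in the difference was not tested further.

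**Figure D2:**
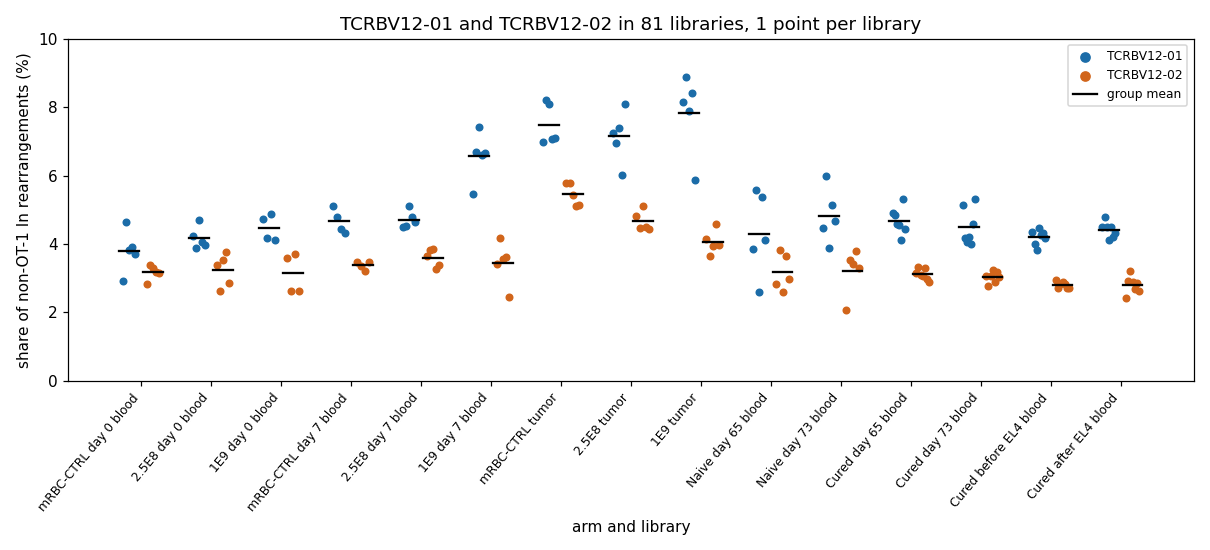
Share of non-OT-1 productive rearrangements (%) held by TCRBV12-01 and TCRBV12-02 in all 81 libraries, 1 point per library, by arm and library, with lines at the group means. TCRBV12-01 of the 1E9 arm in day 7 blood (5.47 to 7.42%) stands above the mRBC-CTRL arm (4.32 to 5.12%), and both members reach their highest shares in tumors.

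Tumors held a larger share of TCRBV12 rearrangements than blood of the same mice taken on the same day, a comparison chosen after the data had been seen. In mRBC-CTRL tumors 1 to 5 the family share was 12.8, 14.1, 13.5, 12.2 and 12.2%, in 2.5E8 tumors it was 12.1, 11.4, 12.6, 10.5 and 12.6%, and in 1E9 tumors 12.3, 12.5, 11.8, 13.3 and 9.85%. Day 7 blood ranged from 7.65 to 8.61%, 8.05 to 8.98% and 8.90 to 10.99% in these arms. Every tumor with matched blood exceeded it, by 3.37 points ± 1.52 (SD, n = 14; exact sign-flip permutation p = 0.000122, the smallest that 14 mice allow).

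Both members took part. TCRBV12-01 was higher in the tumor by 2.16 points ± 1.17 (SD, n = 14) and TCRBV12-02 by 1.17 points ± 0.739, each in 13 of 14 mice (exact permutation p = 0.000366 for each). With the mouse as a covariate in edgeR's fit of rearrangement counts, 9 of 21 V segments (42.9%) were called, 4 of them higher in tumors, and the members were among those 4 with log2 fold changes of 0.59 ± 0.05 for TCRBV12-01 (SE; 1.51-fold, adjusted p = 1.16e-20) and 0.50 ± 0.06 for TCRBV12-02 (SE; 1.42-fold, adjusted p = 1.99e-13). Without rearrangements within 4 edits of OT-1 these were 0.58 and 0.51. Within arms the family's gain was 4.96 points in 4 of 4 mRBC-CTRL mice, 3.54 points in 5 of 5 2.5E8 mice and 1.94 points in 5 of 5 1E9 mice. Between arms, the tumor templates of neither member were called. With the lymphoma clone in the denominator, 15 of 22 V segments (68.2%) were called for 1E9 and 4 of 23 (17.4%) for 2.5E8 against mRBC-CTRL. Without that clone 0 of 21 and 0 of 22 were called. TCRBV12-01 and TCRBV12-02 then had log2 fold changes of -1.03 and -1.98 in 1E9 tumors (edgeR adjusted p = 0.203 and 0.186). With the lymphoma clone kept, the log2 fold change of TCRBV12-02 in 1E9 tumors was -0.75 (adjusted p = 0.324). It turned to 1.45 (adjusted p = 0.0388) without the tumor of mRBC-CTRL mouse 1, in which the clone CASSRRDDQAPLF was large.

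**Figure D3:**
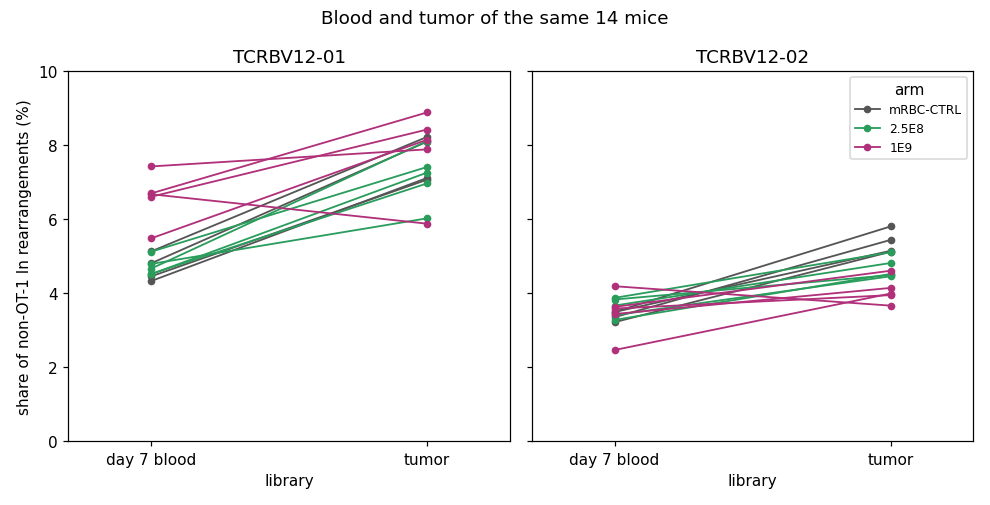
TCRBV12-01 (left) and TCRBV12-02 (right) as a share of non-OT-1 productive rearrangements (%) in day 7 blood and in the tumor of the same 14 mice, joined by lines coloured by arm. The line rises for 13 of 14 mice in each panel.

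The tumor excess lay in the smallest clones. Among rearrangements seen as 1 template, the family held 13.6% ± 1.69 in tumors and 8.75% ± 1.47 in blood (SD), higher in 14 of 14 mice (exact permutation p = 0.000122). With 2 or 3 templates the shares were 10.7% and 8.99%, higher in 11 of 14 mice (exact permutation p = 0.0474). With 4 or more the means turned to 7.48% in tumors and 10.1% in blood (difference -2.72 points, exact permutation p = 0.0227). The tumor was still higher in 6 of 14 mice. Blood libraries held only 8 to 91 rearrangements of this size over all V segments, and tumors 25 to 417. Among out-of-frame rearrangements without those within 4 edits of OT-1, the family held 9.29% in tumors and 8.98% in blood (higher in 8 of 14 mice, exact permutation p = 0.721). The productive gain exceeded the out-of-frame change by 3.10 points ± 1.76 (SD), in 12 of 14 mice (exact permutation p = 0.000488).

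Measures that could shift these counts were set beside them. In tumors, 170 member rearrangements shared their last 36 bases with a rearrangement of another V segment at least 10 times as abundant in the same library, as a chimeric amplicon would, against 17 in blood. Of all 187, the partner was another TCRBV12 segment in 115. OT-1 could not be counted as a partner, because its last 36 bases hold its CDR3 as far as read. Rearrangements with that CDR3 had been left out, so chimeras that end in the OT-1 bases were not examined by this measure. Those that begin with the OT-1 V segment and end in another clone's bases could be counted. Members in tumors included TCRBV12-01 rearrangements with the lymphoma loop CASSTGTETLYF, at 1 or 2 templates each. Such a sequence was read in 6 mice and another in 5, of the mRBC-CTRL and 2.5E8 arms. Whether they were chimeras was not tested. Without rearrangements that shared their last 36 bases in this way, the family's gain was 2.95 points, higher in 13 of 14 mice (exact permutation p = 0.000244). Without all 1-template rearrangements the gain was 0.751 points (10 of 14 mice, exact permutation p = 0.255), and with all libraries drawn down to 482 templates it was 0.991 points (8 of 14 mice, exact permutation p = 0.231). On templates the family share differed by -4.19 points, lower in tumors in 14 of 14 mice (exact permutation p = 0.000122), with the lymphoma clone in the denominator. Without that clone the template difference was -0.729 points ± 3.49 (SD, n = 14), higher in tumors in 4 of 14 mice (exact permutation p = 0.444), and the mean of the mRBC-CTRL mice turned to 2.24 points.

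**Figure D4:**
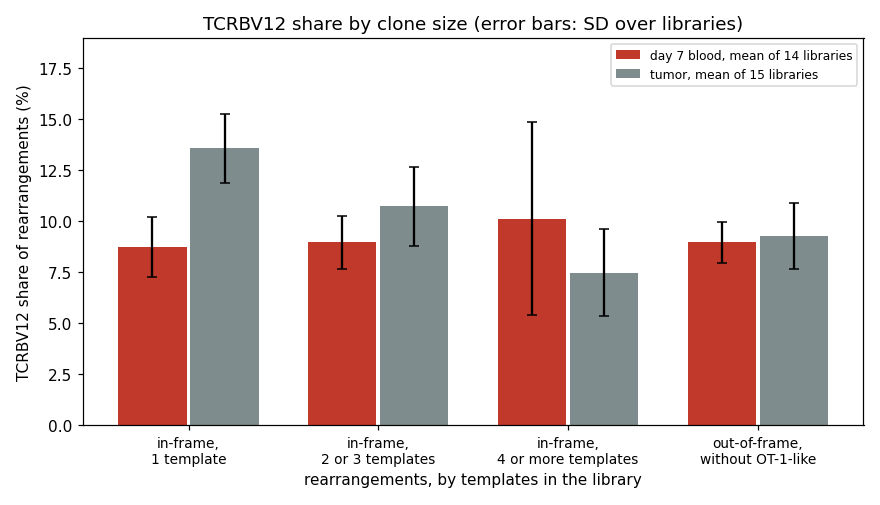
TCRBV12 share of rearrangements (%) in day 7 blood (14 libraries) and tumors (15 libraries) by the templates of each rearrangement in its library, and for out-of-frame rearrangements without those resembling OT-1; bars are means from 0 and error bars SD over libraries. The tumor bar is above the blood bar for 1 template (13.6% against 8.75%) and below it for 4 or more (7.48% against 10.1%).

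The J segments joined in tumors, tested after the data had been seen, were in part those of blood. Of the 12, 4 (33.3%) differed between TCRBV12 and other V segments over 15 tumors. TCRBJ01-02 was higher in the family (8.26% against 5.61%, adjusted permutation p = 0.0167) and TCRBJ01-01 lower (6.27% against 9.65%, adjusted permutation p = 0.00072), as in blood, whereas TCRBJ02-05 did not pass (11.1% against 11.2%, adjusted permutation p = 0.921) and TCRBJ02-03 was lower (7.09% against 8.89%, adjusted permutation p = 0.00812). TCRBJ02-07 was joined by 24.8% ± 1.48, 25.4% ± 3.65 and 29.2% ± 6.70 (SD, n = 5 each) of TCRBV12 rearrangements in mRBC-CTRL, 2.5E8 and 1E9 tumors, and by 21.1%, 20.6% and 20.8% of other rearrangements. It was higher in the family in 5, 4 and 5 of 5 tumors, by 5.69 points ± 4.78 (SD, n = 15; adjusted permutation p = 0.00108), and by 4.51 points without rearrangements within 4 edits of OT-1 (adjusted permutation p = 0.0075). Clones shared between a tumor and day 7 blood of the same mouse numbered 1371, of which 114 were members, with 3 to 21 in a mouse. They held 4.55 to 72.3% (median 41.1%) of the tumor's TCRBV12 templates and 34.5 to 82.5% (median 64.7%) of those of other V segments once the lymphoma clone was left out. The family's part was the larger in 4 of 14 mice, with a mean difference of -19.6 points ± 26 (SD; exact permutation p = 0.0145).

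Large member clones were counted, but those of other V segments were not, so the counts do not set the family apart. Member rearrangements with at least 1% of a library's non-OT-1 templates numbered 13 in 9 libraries. Of these, 9 were in tumors and the other 4 in 1E9 day 7 blood, and 10 used TCRBV12-01. The 13 count 1 clone of 1E9 mouse 3 in both blood and tumor. Also among the 13 was a clone of 5 templates in the 482-template day 7 blood library of 1E9 mouse 5. The sequences of 5 of them, and of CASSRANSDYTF from a Cured mouse, which stayed below 1%, are shown because their template counts follow.
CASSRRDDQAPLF: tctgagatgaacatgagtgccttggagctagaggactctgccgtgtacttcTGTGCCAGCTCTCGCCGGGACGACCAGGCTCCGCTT
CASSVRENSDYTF: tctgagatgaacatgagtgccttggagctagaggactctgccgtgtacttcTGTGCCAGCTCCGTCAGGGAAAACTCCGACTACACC
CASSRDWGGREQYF: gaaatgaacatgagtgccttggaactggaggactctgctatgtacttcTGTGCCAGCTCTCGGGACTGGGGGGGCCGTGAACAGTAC
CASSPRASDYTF: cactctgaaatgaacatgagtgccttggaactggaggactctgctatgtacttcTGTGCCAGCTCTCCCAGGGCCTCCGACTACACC
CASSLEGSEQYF: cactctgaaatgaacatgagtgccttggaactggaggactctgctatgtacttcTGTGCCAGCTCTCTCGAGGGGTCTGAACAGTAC
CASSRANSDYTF: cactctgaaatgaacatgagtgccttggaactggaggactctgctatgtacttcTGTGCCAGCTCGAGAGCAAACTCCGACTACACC

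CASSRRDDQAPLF on TCRBV12-02 was the largest, with 4447 templates or 10.9% of the tumor of mRBC-CTRL mouse 1. It was not read in that mouse's day 0 blood, where a count of 0 allows up to 0.0812%. This clone raised the tumor's family share to 16.2%, against 1.15 to 6.05% in the other 4 mRBC-CTRL tumors. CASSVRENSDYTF, also on TCRBV12-02, had 2 templates on day 0, 18 on day 7 (0.612%) and 78 in the tumor (2.74%) of 2.5E8 mouse 4. The tumor of mRBC-CTRL mouse 1 also held a TCRBV12-01 clone with TCRBJ01-02 at 966 templates (2.37%). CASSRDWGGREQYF on TCRBV12-01 was at 0 on day 0, 71 on day 7 (1.19%) and 103 in the tumor (2.39%) of 1E9 mouse 3. In mRBC-CTRL mouse 3, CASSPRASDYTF and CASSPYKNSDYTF, both on TCRBV12-01 with TCRBJ01-02, went from 0 to 21 and 18 templates in blood and reached 768 (1.42%) and 926 (1.72%) in the tumor. By contrast, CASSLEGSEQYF of 1E9 mouse 2 had 23 templates in day 7 blood (1.44%) and 4 in the tumor (0.431%).

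Clones that moved between 2 blood samples of a mouse were called by Fisher's exact test over clones with at least 5 templates, adjusted within the mouse. From day 0 to day 7, 10 of 21 tested members rose in the 1E9 arm, where 61% of clones of all V segments did, 12 of 15 in the 2.5E8 arm (61.2% of all) and 6 of 8 in the mRBC-CTRL arm (32.1% of all). Members that fell numbered 1, 0 and 0, against 1.69%, 1.53% and 6.6% of all clones; the 1 was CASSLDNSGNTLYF in 1E9 mouse 4, from 9 to 2 templates. The member shares of 47.6%, 80.0% and 75.0% for rises came from few clones and were not tested against the backgrounds. In mRBC-CTRL mouse 5, a pair of rearrangements with the same loop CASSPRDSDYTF appeared with 41 and 34 templates.

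In Cured mice, 7 of 16 members rose from day 65 to 73 (26.4% of all clones) and 0 fell (1.04%). From before to after the EL4 challenge, 4 of 22 rose (8.36%) and 2 fell (14.9%). Of these 4 rises, 2 were the same TCRBV12-02 rearrangement, from 0 to 64 templates in Cured mouse 1 and from 0 to 20 in Cured mouse 5. That sequence, with 9 inserted bases, also had 1 template in day 0 blood of 2.5E8 mouse 5. Why it was shared was not tested, so the 4 rises cannot be read as independent expansions. In Naive mice, 2 of 4 members rose (15.7%) and 0 fell (21.6%). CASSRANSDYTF of Cured mouse 2, whose first residues match the OT-1 loop, rose from 0 to 34 templates (0.794%) by day 73 and was at 9 before the EL4 challenge (0.142%). That mouse had no OT-1 template in any of these 3 libraries.

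Whether endogenous use of the family moved with OT-1 was examined in 4 relations, with arm means subtracted where arms were pooled. The relation in day 0 blood cannot answer this, because the OT-1 cells had been injected only minutes before the blood was drawn. On templates, Pearson's r was 0.203 in day 0 blood (14 mice, permutation p = 0.511), 0.0208 in day 7 blood (14 mice, permutation p = 0.954), 0.0885 in tumors (15 mice, permutation p = 0.624) and 0.641 for the change from day 65 to 73 of Cured mice (7 mice, exact permutation p = 0.118, adjusted over the 4 p = 0.471), with Spearman's rho of 0.323, 0.196, 0.200 and 0.571 (permutation p = 0.294, 0.574, 0.463 and 0.2). None passed.

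On rearrangements, the change in Cured mice did. OT-1 went from 0.0698 to 8.38% in mouse 6 and from 3.62 to 45.03% in mouse 7, and stayed at 0 in mouse 2. The family share fell from 8.18 to 6.93% in mouse 2 and rose from 7.32 to 8.36% in mouse 7. Across the 7 mice r was 0.896 (exact permutation p = 0.00813, adjusted 0.0325) and rho was 0.857 (exact permutation p = 0.0238, adjusted 0.0476). Without mice 2 and 7, the 2 farthest from the median OT-1 change, r was 0.674 (exact permutation p = 0.192) and rho 0.6 (exact permutation p = 0.35). The relation then no longer passed, although r stayed positive. The 5 mice left are too few to tell whether it rests on mice 2 and 7. Without rearrangements within 4 edits of OT-1, r over the 7 mice was 0.894 (adjusted exact permutation p = 0.0310). In tumors r was 0.440 (permutation p = 0.107) and rho was 0.629 (permutation p = 0.0141, adjusted 0.0476; 0.643 without rearrangements within 4 edits of OT-1), and without the 2 farthest mice 0.408 and 0.505 (permutation p = 0.200 and 0.103).

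**Figure D5:**
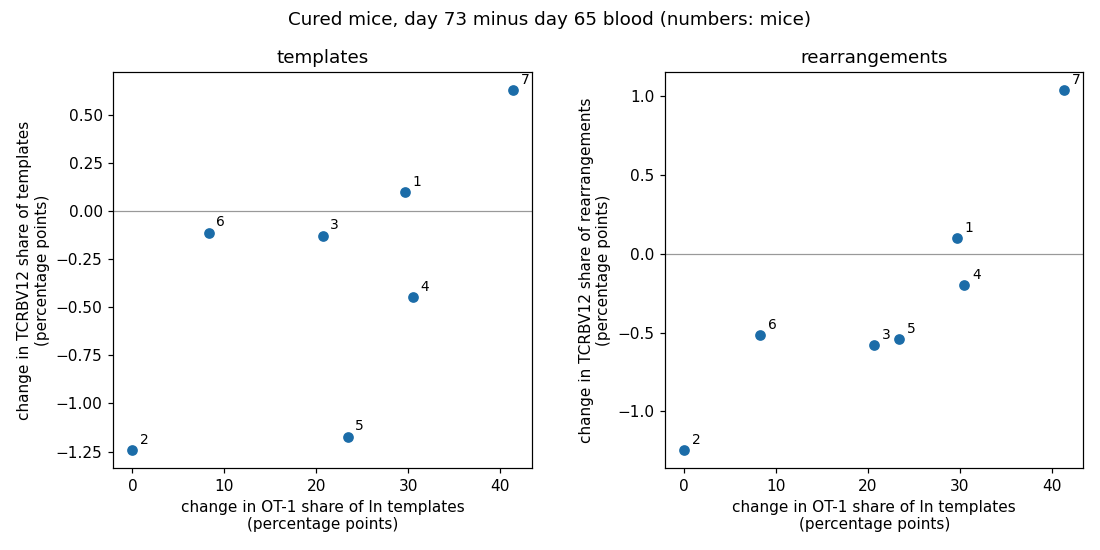
Change of the TCRBV12 share (percentage points, left templates, right rearrangements) against the change of the OT-1 share of productive templates (percentage points) from day 65 to day 73 in the 7 Cured mice, each numbered. The mice lie closer to a rising line on rearrangements (r = 0.896) than on templates (r = 0.641), with mouse 2 at no OT-1 change and mouse 7 at the largest.

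In the rechallenge experiment the family's template share went from 7.82% ± 0.529 to 7.48% ± 0.582 in Cured mice (SD, n = 7) and from 7.41% ± 1.72 to 8.36% ± 0.891 in Naive mice (SD, n = 5) between days 65 and 73. The changes of -0.338 and 0.949 points differed by -1.29 points (exact permutation p = 0.0227, adjusted over the 19 comparisons 0.264). The Naive mice started widely apart, at 6.48, 9.35, 5.40, 9.06 and 6.77%, and the range narrowed to 7.17 to 9.46% by day 73. In Cured mice the share was 7.04% ± 0.292 before and 7.19% ± 0.547 after the EL4 challenge (SD, n = 7), with both ranges inside 6.41 to 7.84%.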

How the data were processed

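The authors sequenced TCRβ CDR3 from genomic DNA with the immunoSEQ assay and deposited 1 table per sample with template counts, CDR3, frame status and V and J names; the aligner and genome build are not given in the sources used here. The deposited counts were whole numbers and were used without change. Shares were computed over non-OT-1 productive templates or rearrangements. Groups followed the labels; 1 Cured day 73 library whose wording names mouse 1 was placed by its animal code as mouse 2. Replicates are mice. Group comparisons used 2-sided exact permutation tests, within-mouse ones sign-flip tests (100000 resamples where over 14 mice), and V segments together edgeR 4.0.16 quasi-likelihood fits with totals of non-OT-1 templates as library sizes, all with Benjamini-Hochberg adjustment; DESeq2 1.42.0 was an alternative. Other work used Python 3.11.15, pandas 2.3.3, NumPy 2.4.6, SciPy 1.17.1, matplotlib 3.10.9 and R 4.3.3. Tests were checked on simulated data. Sequences named in the text are rearrangements with at least 1% of a library, the largest of a group, those called between blood samples and those shared by most mice. The members, lists and comparisons were chosen with earlier results of these data known. Alternatives covered the unit, the denominator, OT-1-like, lymphoma, largest and 1-template clones, drawing down to 482 templates, normalization, filters and leaving out each mouse. Removing possible chimeras and rearrangements within 4 edits of OT-1, pooling tumor against blood over arms, and testing J segments in tumors were added after seeing the data.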

Additional observations from a re-analysis of the deposited data

Results flagged for a closer look

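A sample far from the others of its group occurred 3 times among 60 groups and measures examined, where about 3 would be expected by chance. In 1E9 day 7 blood, mouse 2 had a family template share of 11.7%, against 8.15 to 9.03% in the other 4 mice, and it carried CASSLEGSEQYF and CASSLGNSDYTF at 1.44 and 1.38%. In the same group, mouse 5 had a TCRBV12-02 template share of 2.28%, from the shallowest library (482 templates). In mRBC-CTRL tumors, mouse 1 had a TCRBV12-02 template share of 11.95%, of which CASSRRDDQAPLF alone was 10.9%.

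In 2 comparisons the effects of 2 groups differed by an unadjusted p below 0.05, and neither passed once adjusted over the 19 comparisons. The change of the family's template share from day 65 to 73 was lower in Cured than in Naive mice by 1.29 points (-1.29; exact permutation p = 0.0227, adjusted 0.264), and the change of its rearrangement share from day 0 to 7 was larger in 1E9 than in mRBC-CTRL mice by 1.92 points (2.68 against 0.758; exact permutation p = 0.0286, adjusted 0.198, the smallest that 4 against 4 mice allow).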

How the results depend on the processing

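Of 834 alternative values, 677 kept their direction and their side of the threshold. Causes were not tested, apart from what each alternative's construction shows. At 482 templates, the depth of the shallowest library, the pooled tumor gain went from 3.37 to 0.991 points (SD 2.93, n = 14).

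On rearrangements in place of templates, the day 7 differences from mRBC-CTRL were 1.97 points for 1E9 and 0.264 for 2.5E8, their changes from day 0 differed by 1.92 and 0.144, tumor minus blood was 4.96, 3.54 and 1.94 in mRBC-CTRL, 2.5E8 and 1E9, and Cured minus Naive was -0.853. The relations were -0.346 (day 7) and 0.896 (Cured), V segments called numbered 1 in day 7 blood, 0 in 1E9 and 2.5E8 tumors, 2 in the 1E9 time course and 0 in Cured mice, and TCRBV12-02 had log2 fold changes of 0.0939 (day 7), -0.0299 (day 65) and 0.159 (1E9 time course). Without those within 4 edits of OT-1, the counts were 1 and 2 and TCRBV12-02 had 0.0952 and 0.160. Conversely, on templates the pooled tumor gain was -4.19, with 19 V segments called and log2 fold changes of -1.16 and -1.36, the CDR3 length difference was 0.0279 and TCRBJ02-03 -0.0228.

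With all productive templates, OT-1 included, as the denominator, differences were -4.80 (day 7, 1E9), -2.61 (day 73), -2.14 (1E9 time course), -1.999 (Cured, day 73), 0.864 (Cured, before EL4) and -4.58 (change, 1E9), and 6 and 4 clones were called higher in 1E9 and Cured mice. At 482 templates they were -2.19 (day 73), -1.81 (Cured, day 73), 0.563 (Cured, before EL4) and -0.985 (change, 1E9). Without 1-template rearrangements they were -0.176 (day 7, 1E9), -1.58 (day 73), -0.269 (Cured, after EL4), -0.494 (change, 1E9) and 0.751 (pooled tumor gain). Without each library's largest member they were -0.716 (day 7, 2.5E8), 1.73 and 0.156 (1E9 and 2.5E8 tumors), -1.02 (day 73) and -0.0265 (change, 1E9), with a day 7 relation of -0.0513. Without the lymphoma clone, mRBC-CTRL tumor minus blood was 2.24, the pooled tumor difference on templates -0.729, 0 V segments were called in either tumor comparison and TCRBV12-01 had -1.03 in 1E9. On a log2 scale the tumor differences were 0.609 and 0.0548. The day 7 relation was -0.0171 and -0.0499 without rearrangements within 2 mismatches or 4 edits of OT-1, and without the 2 farthest mice the relations were -0.0552 (day 7) and -0.116 (Cured).

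DESeq2 called 2 V segments in day 7 blood, 2 in 1E9 tumors and 0 in Cured mice, with 0.0725 for TCRBV12-02 (day 7) and -1.17 for TCRBV12-01 (1E9 tumor). TMM normalization gave 0.0693, -1.13 and -0.0061 (TCRBV12-02, day 65), with 2 and 0 called in 1E9 and 2.5E8 tumors. Without a filter 2 were called in 2.5E8 tumors, 1 on day 65, 1 in the 1E9 time course and 0 in Cured mice. At 10 templates 5 clones were called higher in 2.5E8, 2 in Cured and 1 in Naive mice, and 0 lower in Cured blood after EL4. For TCRBV12-01 only, the length difference was 0.0420, TCRBJ02-04 0.0178 and TCRBJ02-05 -0.0529; for TCRBV12-02 only, In minus out of frame was 0.0955, length 0.0402, inserted bases 0.0705, TCRBJ02-01 -0.529 and TCRBJ02-03 -0.606. In the last blood library length differed by 0.0112. In the treatment experiment length differed by -0.00014 and inserted bases by 0.0958, with 4 J segments called, and in the rechallenge experiment TCRBJ02-03 by -0.146.

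The main within-mouse tests pair samples of the same animal. Without that block the differences were 1.49 (mRBC-CTRL, day 7 minus day 0; exact permutation p = 0.0159), -3.69 and -3.63 (2.5E8 and 1E9, tumor minus blood; exact permutation p = 0.00794 for both), with 1 V segment called in the 1E9 time course and 0 in Cured mice. Between arms the mouse numbers name different animals (mean correlations of same-numbered deviations were -0.158 over 41 pairs and 0.134 over 10); blocking on them gave -1.53 for Cured minus Naive (exact permutation p = 0.0625), 2 V segments in 2.5E8 tumors and 0.81 and 0.84 for TCRBV12-02 in 1E9 and 2.5E8 tumors.

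Leaving out each mouse gave -0.0011 to 0.231 (Cured, after EL4), -1.55 to -0.878 (Cured minus Naive change), -0.0977 to 0.889 (day 65) and -1.18 to -0.607 (day 73). Tumor differences ranged from -1.13 to 2.62 (1E9) and -2.55 to 1.21 (2.5E8), log2 fold changes of TCRBV12-02 from -1.03 to 1.45 and -0.92 to 1.69 and of TCRBV12-01 in 2.5E8 from -0.64 to 0.0245; the highest values of the family and of TCRBV12-02 came without mRBC-CTRL mouse 1, whose tumor held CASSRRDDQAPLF. TCRBV12-02 ranged from -0.0476 to 0.0659 (day 65) and -0.0526 to 0.0146 (day 7), and V segments called from 0 to 2 (day 7), 0 to 1 (1E9 time course), 0 to 1 (Cured) and 2 to 3 (2.5E8 tumors).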
